A study of Mus musculus with 6 samples.

Results

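The 10 genes described here are the mouse NRF2 antioxidant and NADPH genes Nfe2l2, Keap1, Nqo1, Gclc, Gclm, Txnrd1, Srxn1, G6pdx, Me1 and Gsr. They were taken by symbol from a table of 54532 gene rows, and all 10 were found. Bulk RNA sequencing measured them in hippocampal neurospheres, floating spheres of neural progenitor cells, from newborn (postnatal day 0) C57BL/6 mice. The FGF13cko group (3 libraries) is labelled hGFAPCre+, Fgf13 flox/y, and the CTRL group (3 libraries) hGFAPCre+, Fgf13+/y. Both groups therefore carry the hGFAPCre transgene, in which the human GFAP promoter drives Cre recombinase, and both have a single X-linked Fgf13 allele. All spheres grew with FGF-2 and EGF at 20 ng/ml each and were collected on day 7. Cells of 1 mouse filled 2 wells, and the labels do not say whether each library came from a different mouse, so p-values measure the spread between these libraries, which may be technical. The question put to these libraries is whether the 10 genes differ after Cre acts on the floxed Fgf13 allele.

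NRF2, the product of Nfe2l2, is a transcription factor that KEAP1 holds in the cytoplasm and hands to a ubiquitin ligase for degradation. Oxidants and electrophiles modify cysteines of KEAP1, NRF2 then escapes degradation, and with small MAF partners it binds antioxidant response elements in its target genes. The targets make glutathione, reduce thioredoxin and oxidised peroxiredoxins, detoxify quinones and supply NADPH, the reductant on which these systems draw. In brain, astrocytes are known for high NRF2 pathway activity and neurons for low activity. Because the control of NRF2 lies largely in protein stability, the Nfe2l2 transcript is a measure of its mRNA and not of its activity.

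The sequence NRF2 is known to recognise is shown because the genes below share it unevenly. RefSeq promoter windows (GRCm38.p6, 250 bases before to 50 after an annotated start) matched 8 of the 10 genes, with 11 windows in all. Gclc and Gsr had no match. The core TGACNNNGC was searched on both strands, together with TGANTCA, the AP-1 type site, which reads the same on both strands and can overlap the core. The core was found in 6 of the 11 windows, 1 in each of 6 genes, and in 12.4% of all 32851 windows (13.9% of windows of tested genes). TGANTCA was found in 2 of the 11 windows and in 7.81% of all windows (5.17% of windows of tested genes). A match describes letters and not a bound site. Srxn1 (chr2:152105274-152105573, plus strand) held TGANTCA at 102 and 45 bases before the start and the core, on the opposite strand, at 29 bases after it, and only 0.46% of all windows held TGANTCA more than once. In the lines below, capitals mark every match to either motif, and the shorter lines show 10 bases on each side of a match to the core.

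Srxn1: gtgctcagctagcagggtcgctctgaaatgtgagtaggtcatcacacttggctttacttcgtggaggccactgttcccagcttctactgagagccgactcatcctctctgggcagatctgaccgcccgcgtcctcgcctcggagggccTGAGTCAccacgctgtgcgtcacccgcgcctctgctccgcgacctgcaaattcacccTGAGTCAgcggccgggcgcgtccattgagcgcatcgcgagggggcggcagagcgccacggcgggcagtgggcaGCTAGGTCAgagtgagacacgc
Nfe2l2 (chr2:75704885-75704913, minus strand): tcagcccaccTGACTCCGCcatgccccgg
Gclm (chr3:122245413-122245441, plus strand): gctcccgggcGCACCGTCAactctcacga
Txnrd1 (chr10:82859104-82859132, plus strand): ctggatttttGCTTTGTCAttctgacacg
G6pdx (chrX:74428919-74428947, minus strand): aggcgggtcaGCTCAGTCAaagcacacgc
Me1 (chr9:86695902-86695930, minus strand): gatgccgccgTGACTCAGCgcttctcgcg

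The match in Me1, TGACTCAGC, also contains TGACTCA, so both motifs are present in the same bases. In Srxn1 the site 45 bases before the start reads TGAGTCAgc, which has G where the Me1 match has C. The core as searched, TGACNNNGC, does not take in this form. Keap1 and Nqo1 held neither motif in this window, and 2 of the 3 Txnrd1 windows and 1 of the 2 Me1 windows held neither.

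The libraries held 24015697 to 24531400 reads assigned to genes in FGF13cko and 22191718 to 24261454 in CTRL. Fgf13, the targeted gene, had 201, 239 and 332 normalized counts in FGF13cko and 480, 651 and 276 in CTRL, so the library labelled CTRL 3 lay inside the FGF13cko range (log2 change -0.81, SE 0.33, limma adjusted p = 0.134, and -1.15 with adjusted p = 0.0108 without CTRL 3). A sum of reads across the gene does not show whether the floxed exon is gone. The replicate 3 libraries stood apart from the others, with 4.05% mitochondrial reads in FGF13cko 3 and 4.14% in CTRL 3. The other libraries differed by group, with 2.28% and 2.36% in FGF13cko 1 and 2 and 1.48% and 1.46% in CTRL 1 and 2. All 8 progenitor markers were detected in every library, with summed levels of 166158 to 180341 normalized counts in FGF13cko and 111993 to 126380 in CTRL and 2 of 8 (Sox2 and Pax6) lower by limma. Vim (log2 change 0.81), Fabp7 (0.56) and Nes (1.29), which had the highest mean counts, rose without passing. Of the 8 log2 changes 3 were above 0, and the median was -0.30. Summed neuron markers reached 30086 to 42758 normalized counts in FGF13cko and 19305 to 25014 in CTRL, with 5 of 8 higher by limma. Summed endothelial markers were at 258 to 431 and 127 to 157, with 2 of 7 tested higher. Mural and fibroblast markers were at 2833 to 3904 and 2568 to 5718, with 2 of 6 higher. Of these counts Cspg4, also an oligodendrocyte marker here, held 1964, 2131 and 1439 in FGF13cko and 5441, 4921 and 2157 in CTRL. The 2 higher were Rgs5 (log2 change 2.64) and Col1a2 (1.81). Acta2 (2.02) and Pdgfrb (0.51) rose and Cspg4 (-1.09) and Col1a1 (-1.11) fell without passing. Oligodendrocyte markers were at 58198 to 74787 and 45006 to 71982, with 1 of 8 lower. Astrocyte markers were at 58821 to 86366 and 63314 to 93448, with 0 of 8 past the test by limma (0 at an unadjusted p under 0.05, 0 by edgeR and 0 by DESeq2). Microglial markers were at 126 to 277 and 71.5 to 99.1, with 0 of 4 past it (2 unadjusted, 0 by edgeR and 2 by DESeq2). Erythroid markers were at 19.3 to 41.6 and 11.1 to 46.5, and Hba-a2 and Hbb-bt were at 0 in all 6 libraries. Beside these marker counts, 7.55% of all 16852 tested genes were higher and 7.08% lower by limma, and 5369 had an unadjusted limma p under 0.05. Calls over all genes were 14.9% by edgeR and 23.6% by DESeq2. In bulk RNA, fewer cells of a type and less RNA per cell cannot be told apart.

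Of the 10 genes, Srxn1 alone rose in FGF13cko neurospheres, and the other 9 did not pass the test. This is 1 of 10 at an adjusted p under 0.05, where 14.6% of all 16852 tested genes passed in either direction while 7.55% were higher and 7.08% lower in FGF13cko (limma on log2(normalized count + 1), Benjamini-Hochberg adjustment over all tested genes). The authors' deposited table has the same gene, and no other of the 10, under 0.05, beside 16.7% of its genes. All 10 were abundant enough to be tested, with 141 to 8009 recovered reads per gene and library. The median log2 change of the 10 was 0.22, against 0.02 over all tested genes, and 8 of 10 changes were above 0, where 52.0% of tested genes were. Srxn1 and Gclm had no overlap between the groups, 2 of 10, where 39.4% of tested genes had none.

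**Figure D1:**
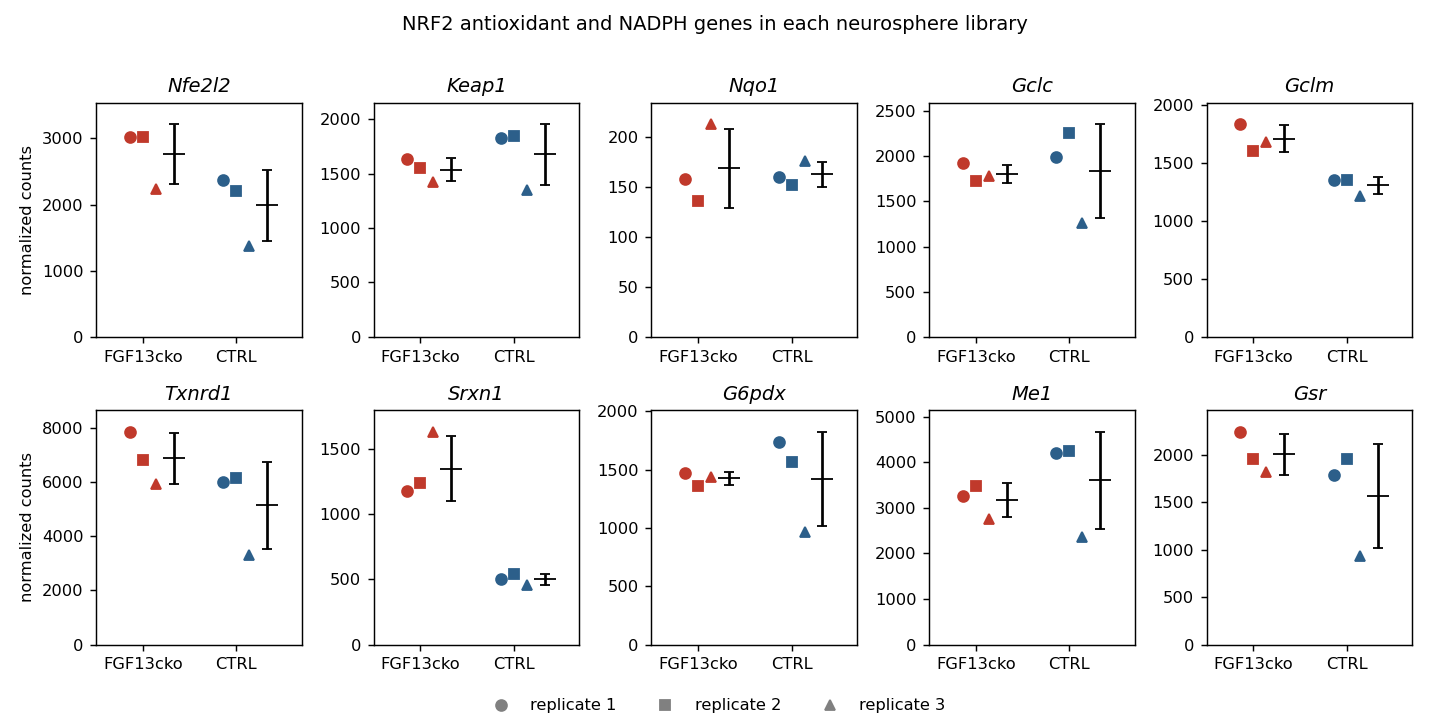
Normalized counts of the 10 genes in each library, FGF13cko in red and CTRL in blue, with symbols for replicate numbers and black bars for the mean ± SD (n = 3 each). The FGF13cko and CTRL points are apart in Srxn1 and Gclm, and CTRL replicate 3 is the lowest point in 9 of the 10 panels.

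Nfe2l2 (ENSMUSG00000015839, chromosome 2, 75675513 to 75704641, GRCm38), which encodes NRF2 itself, had 3024, 3020 and 2233 normalized counts in FGF13cko 1, 2 and 3, and 2370, 2210 and 1380 in CTRL 1, 2 and 3. FGF13cko 3 fell between the CTRL values, so the groups overlapped, while each FGF13cko library was above the CTRL library of the same number. The log2 change was 0.50 (SE 0.23, 95% interval -0.04 to 1.04) and did not pass with genotype alone (limma adjusted p = 0.185). With the replicate number as a block it passed (limma adjusted p = 0.0169), in a fit that called 30.0% of all tested genes. The labels do not say what a replicate number marks, so the pairing in this and later blocked fits is not established.

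Keap1 (ENSMUSG00000003308, chromosome 9, 21229730 to 21239361), the adaptor that marks NRF2 for degradation, had 1633, 1551 and 1423 normalized counts in FGF13cko and 1824, 1847 and 1353 in CTRL. The CTRL libraries lay on both sides of the FGF13cko values. Its log2 change was -0.11 (SE 0.16, 95% interval -0.49 to 0.26, limma adjusted p = 0.67). Keap1 shares 510 exon bases with the antisense gene Gm16754 (mean 72.3 normalized counts), and strand is not marked by the kit used, which leaves reads in that stretch uncertain. Per kb of exon, the Nfe2l2 level over the Keap1 level gave 2.29, 2.41 and 1.94 in FGF13cko, against 1.61, 1.48 and 1.26 in CTRL. These ratios did not overlap. An exact permutation test, 2-sided, gave p = 0.1, the smallest that 3 against 3 libraries allows (0.25 adjusted over 5 such ratios, all chosen after the values were seen).

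Glutathione is made in a first, limiting step by glutamate-cysteine ligase, a pair of subunits. Gclm (ENSMUSG00000028124, chromosome 3, 122245557 to 122270732), the modifier subunit, had 1835, 1606 and 1683 normalized counts in FGF13cko and 1351, 1350 and 1219 in CTRL. Each FGF13cko library was above each CTRL library. The log2 change of 0.39 (SE 0.13, 95% interval 0.09 to 0.69) missed the threshold with genotype alone (limma adjusted p = 0.0851). It passed with the replicate block (limma adjusted p = 0.0408) and by DESeq2 on recovered reads (adjusted p = 0.0202), and not by edgeR (adjusted p = 0.0734). DESeq2 called 23.6% of all genes and edgeR 14.9%. Gclm exons share 296 bases with the opposite-strand gene Gm17494 and 244 bases with Gm6061, a pseudogene whose sequence is close to that of the abundant gene Ppia, so a part of its reads is uncertain.

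Gclc (ENSMUSG00000032350, chromosome 9, 77754535 to 77794485), the catalytic subunit, had 1921, 1722 and 1777 normalized counts in FGF13cko and 1991, 2263 and 1261 in CTRL. The FGF13cko libraries sat close together, inside the wide CTRL range. The log2 change was 0.02 (SE 0.22, 95% interval -0.49 to 0.52, limma adjusted p = 0.967), and it was -0.23 without CTRL 3. The ratio of Gclm to Gclc level per kb stood at 0.57, 0.56 and 0.57 in FGF13cko, against 0.41, 0.36 and 0.58 in CTRL. CTRL 3 thus had a ratio like that of the FGF13cko libraries, and the groups overlapped (exact permutation p = 0.4, 0.5 adjusted over the 5 ratios).

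Gsr (ENSMUSG00000031584, chromosome 8, 33652523 to 33698163), glutathione reductase, which uses NADPH to regenerate glutathione, had 2246, 1955 and 1822 normalized counts in FGF13cko and 1794, 1962 and 940 in CTRL. CTRL 3 stood far below the other 5 libraries. Gsr had a log2 change of 0.42 (SE 0.27, 95% interval -0.20 to 1.05, limma adjusted p = 0.32). Without CTRL 3 it was 0.09 (limma adjusted p = 0.625).

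Txnrd1 (ENSMUSG00000020250, chromosome 10, 82833951 to 82897712), the cytosolic selenoprotein that reduces thioredoxin, was the gene with the most counts of the 10. It had 7877, 6827 and 5961 normalized counts in FGF13cko and 6021, 6153 and 3301 in CTRL. FGF13cko 3 was below CTRL 1 and CTRL 2, so the groups overlapped. The log2 change was 0.46 (SE 0.26, 95% interval -0.13 to 1.06, limma adjusted p = 0.255), 0.17 without CTRL 3, and past the threshold with the replicate block (limma adjusted p = 0.0487). Gsr and Txnrd1, related flavoprotein reductases, kept a ratio per kb of 0.73, 0.74 and 0.79 in FGF13cko and 0.77, 0.82 and 0.73 in CTRL (exact permutation p = 0.7, 0.7 adjusted over the 5 ratios).

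Srxn1 (ENSMUSG00000032802, chromosome 2, 152105516 to 152111376), sulfiredoxin, uses ATP to repair peroxiredoxins whose catalytic cysteine has been over-oxidised to sulfinic acid. It had 1171, 1239 and 1628 normalized counts in FGF13cko and 504, 540 and 457 in CTRL. The lowest FGF13cko library was above every CTRL library. The means were 1346 ± 247 in FGF13cko and 500.3 ± 41.7 in CTRL (SD, n = 3 each), a 2.69-fold ratio and a log2 change of 1.41 (SE 0.17, 95% interval 1.03 to 1.80, limma adjusted p = 0.00335). By p-value it ranked 153 of the 16852 tested genes. It passed under each of the 16 alternatives, with log2 changes of 1.21 to 1.51, and with each single library left out its limma adjusted p was 0.00138 to 0.0272. Those fits called 4.33% of all genes without CTRL 1, 9.29% without CTRL 2, 26.4% without CTRL 3, 8.32% without FGF13cko 1, 2.78% without FGF13cko 2 and 5.49% without FGF13cko 3. The other settings called 14.6% and 14.9% with pseudocounts of 0.5 and 5, 14.4% with TMM scaling, 12.3% with no mean-variance trend, 15.5% at a minimum mean of 50 and 6.04% with no filter on low values. No other annotated gene shares its exons. Summed neuron markers, at 30086, 36035 and 42758 normalized counts in FGF13cko and 22787, 25014 and 19305 in CTRL, put the 6 libraries in the same order as Srxn1. Sod3, described below, had that order too, and the share of all tested genes with it was not counted. Among single neuron markers Rbfox3, Tubb3, Snap25 and Elavl3 had it, and Dcx, Map2, Syt1 and Stmn2 did not. The part of neuron markers in the Srxn1 result was not tested. The exact permutation test gave p = 0.1, the smallest the design allows.

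Per kb, the Srxn1 level over the Txnrd1 level gave 0.37, 0.46 and 0.69 in FGF13cko, against 0.21, 0.22 and 0.35 in CTRL. The replicate 3 library was the highest of its group in both, and the groups did not overlap (exact permutation p = 0.1, 0.25 adjusted over the 5 ratios).

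Nqo1 (ENSMUSG00000003849, chromosome 8, 107388225 to 107403206), a quinone reductase widely used as a readout of NRF2 activity, was the least abundant. It had 157, 136 and 213 normalized counts in FGF13cko and 160, 152 and 176 in CTRL. The replicate 3 library was the highest in both groups, unlike in the other genes except Srxn1 in FGF13cko. Nqo1 had a log2 change of 0.03 (SE 0.22, 95% interval -0.47 to 0.53, limma adjusted p = 0.939), and it was -0.15 without FGF13cko 3, -0.02 without CTRL 2 and -0.09 without both replicate 3 libraries. The interval includes changes of up to 0.53 in the direction of Srxn1.

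The genes that make NADPH did not pass the test. G6pdx (ENSMUSG00000031400, chromosome X, 74409483 to 74429194), glucose-6-phosphate dehydrogenase, the entry to the pentose phosphate pathway, had 1474, 1358 and 1437 normalized counts in FGF13cko and 1732, 1566 and 968 in CTRL. The FGF13cko libraries lay between CTRL 3 and the other CTRL libraries. G6pdx had a log2 change of 0.04 (SE 0.22, 95% interval -0.46 to 0.55, limma adjusted p = 0.912), and -0.21 without CTRL 3. G6pdx shares 418 exon bases with Ikbkg on the opposite strand (mean 1050.0 normalized counts), so a part of its reads is uncertain.

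Me1 (ENSMUSG00000032418, chromosome 9, 86581371 to 86695953), the cytosolic malic enzyme, which yields NADPH as it turns malate into pyruvate, had 3263, 3478 and 2762 normalized counts in FGF13cko and 4197, 4236 and 2369 in CTRL. CTRL 1 and 2 were above all FGF13cko libraries and CTRL 3 below all of them. The log2 change was -0.14 (SE 0.24, 95% interval -0.70 to 0.41, limma adjusted p = 0.722). Without CTRL 3, Me1 fell by 0.42 on the log2 scale and passed (limma adjusted p = 0.0437), in a fit that called 26.4% of all genes. The gene Gm7049 is 98.4% identical to Me1 over 1716 bases and had a mean of 3.65 normalized counts.

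**Figure D2:**
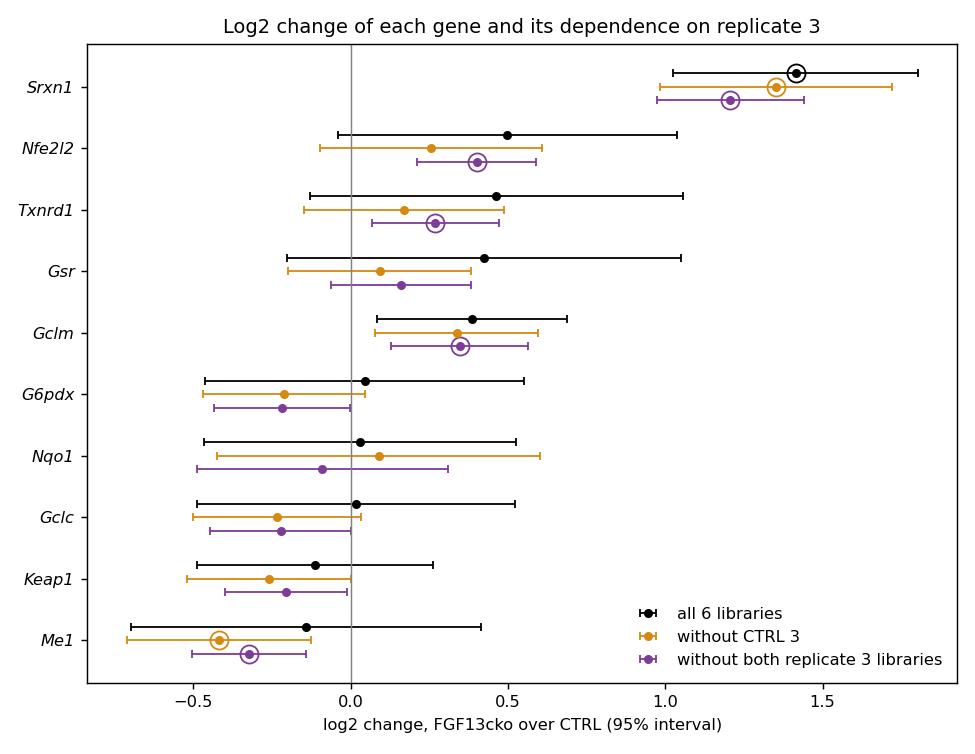
Log2 change of each gene, FGF13cko over CTRL, with its 95% interval from limma for all 6 libraries, without CTRL 3, and without both replicate 3 libraries; an open ring marks an adjusted p under 0.05. Srxn1 is ringed in each fit, and the intervals of Nqo1 cover 0 in each.

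The library labelled CTRL 3 set much of the spread. It was the lowest of the 6 libraries in 9 of the 10 genes, all but Nqo1, and in 32.4% of tested genes. Relative to the mean of CTRL 1 and 2, CTRL 3 held 50.02% of Gsr, 54.2% of Txnrd1, 56.2% of Me1, 58.7% of G6pdx, 59.3% of Gclc and 60.3% of Nfe2l2. It held 73.7% of Keap1, 87.6% of Srxn1, 90.3% of Gclm and 113% of Nqo1, and the median over all tested genes was 95.3%. FGF13cko 3 ranged from 73.9% of the FGF13cko 1 and 2 mean for Nfe2l2 to 135% for Srxn1 and 145% for Nqo1, with a median of 93.5% over the 10 genes. In Srxn1 and Nqo1 it was farther from its group than CTRL 3 was. All 10 genes were higher in FGF13cko 3 than in CTRL 3, where 52.8% of tested genes were. In replicate 1 the number was 5 of 10, and in replicate 2 it was 4 of 10. The shares of tested genes in replicates 1 and 2 were not counted. Gfap, an astrocyte marker, had 7845, 14371 and 30885 normalized counts in FGF13cko and 6190, 3721 and 26687 in CTRL, highest in replicate 3 of both groups. The astrocyte markers did not move together. In CTRL 3 the others ran from 810% of the CTRL 1 and 2 mean for Aqp4 to 65.1% for Sox9. In FGF13cko 3 they ran from 218% of the FGF13cko 1 and 2 mean for Aqp4 to 78.3% for Sox9. The part of astrocyte RNA in the values above was not tested.

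Without both replicate 3 libraries, 5 of the 10 genes passed, in a fit that called 37.3% of all genes. Srxn1 (log2 change 1.21), Nfe2l2 (0.40), Gclm (0.35) and Txnrd1 (0.27) were higher in FGF13cko, and Me1 was lower (-0.32), with limma adjusted p of 3.79e-05, 0.00512, 0.0198, 0.041 and 0.0122 in that order.

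The spread within a group differed between genes. In FGF13cko the coefficient of variation ran from 4.16% for G6pdx to 23.4% for Nqo1, and in CTRL from 5.81% for Gclm to 35.0% for Gsr. Levels were compared between genes per kb of exon, over the union of annotated exons. In FGF13cko the order was Txnrd1 (972 ± 135 normalized counts per kb), Me1 (823 ± 95.5), Gsr (729 ± 78.9), Nfe2l2 (727 ± 120.0), Gclc (480 ± 27.3), Srxn1 (477 ± 87.5), G6pdx (462 ± 19.2), Keap1 (327 ± 22.6), Gclm (272 ± 18.5) and Nqo1 (109 ± 25.4). In CTRL it was Me1 (936 ± 277), Txnrd1 (728 ± 227), Gsr (568 ± 199), Nfe2l2 (523 ± 140), Gclc (488 ± 138), G6pdx (462 ± 131), Keap1 (357 ± 59.4), Gclm (208 ± 12.1), Srxn1 (177 ± 14.8) and Nqo1 (105 ± 7.89) (SD, n = 3 each). In CTRL, neighbours from Me1 down to Keap1 had overlapping library ranges, while Gclm, Srxn1 and Nqo1 were apart from their neighbours. In FGF13cko the range of Nfe2l2 was apart from that of Gclc, and Gclc, Srxn1 and G6pdx overlapped. Srxn1 thus stood at position 6 in FGF13cko and 9 in CTRL, and Nqo1 was last in both.

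**Figure D3:**
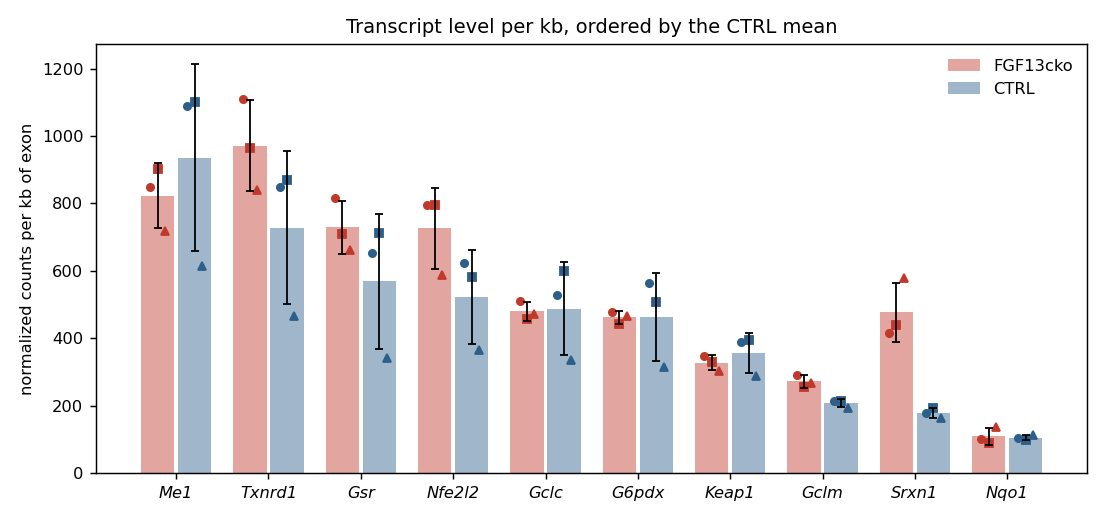
Mean normalized counts per kb of exon (bars, SD as error bars, n = 3 each) with each library as a point, FGF13cko in red left of CTRL in blue, ordered by the CTRL mean. The Srxn1 bars stand at 477 in FGF13cko and 177 in CTRL, and CTRL replicate 3 (triangle) is low in the genes at the left.

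Around these 10 genes, 6 lists of redox genes held 92 genes, of which 90 were tested. Of these 5 rose and 8 fell in FGF13cko, 14.4% in all beside 14.6% of all tested genes, and the median log2 change was 0.09. With the replicate block 33 of the 90 passed, in the fit that called 30.0% of all tested genes. NRF2 regulators (small MAF partners, BACH repressors, the ubiquitin ligase parts and related factors) had 0 of 12 past the test by limma, with 3 at an unadjusted p under 0.05, 0 by edgeR and 3 by DESeq2. Of all 16852 tested genes, 5369 had an unadjusted limma p under 0.05, and edgeR called 14.9% and DESeq2 23.6%. The most abundant, Nfe2l1, a relative of NRF2 that drives proteasome genes, had 7823, 7929 and 6854 normalized counts in FGF13cko and 7480, 7142 and 5088 in CTRL (limma adjusted p = 0.463). Bach2, Mafk and Sqstm1, named after their values were seen, were those past DESeq2 and past the replicate block, all higher in FGF13cko.

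Among other NRF2 targets 4 of 18 tested genes fell and none rose by limma, where 7.08% of all tested genes were lower and 7.55% higher. The same numbers came from edgeR, while DESeq2 gave 4 lower and 3 higher and the replicate block 4 lower and 4 higher. Of the 18 log2 changes, 8 were above 0. Blvrb, a biliverdin and flavin reductase, had 307, 295 and 371 normalized counts in FGF13cko and 758, 591 and 900.1 in CTRL (log2 change -1.19, SE 0.19, limma adjusted p = 0.00914). Ugdh, which makes UDP-glucuronate for detoxification and matrix sugars, had 830.1, 784 and 787 in FGF13cko and 1593, 1625 and 1248 in CTRL (log2 change -0.88, SE 0.15, limma adjusted p = 0.0102). Abcc1, an exporter of glutathione conjugates, had 576, 562 and 390.4 in FGF13cko and 1325, 1260 and 798 in CTRL (log2 change -1.13, SE 0.24, limma adjusted p = 0.0215). In each of the 3 genes all FGF13cko libraries were below all CTRL libraries, where 39.4% of tested genes had no overlap in either direction. The other call was the glutathione transferase gene Gsta3 (log2 change -1.79, limma adjusted p = 0.0274), named after its values were seen.

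Glutathione genes outside the 10 were split, with 2 of 18 higher and 2 lower, 22.2% in all beside 14.6% of all tested genes. Chac1, which degrades glutathione and is a target of the stress factor ATF4, had 182, 201 and 245 normalized counts in FGF13cko and 491, 439 and 432 in CTRL (log2 change -1.12, SE 0.17, limma adjusted p = 0.0079). Gsto1, an omega-class glutathione transferase, had 994, 1096 and 1105 in FGF13cko and 607, 639 and 625 in CTRL (log2 change 0.77, SE 0.13, limma adjusted p = 0.0099). Gpx1, the cytosolic glutathione peroxidase, had 3096, 2834 and 3658 in FGF13cko and 2133, 2153 and 2091 in CTRL (log2 change 0.58, SE 0.14, limma adjusted p = 0.0332). The groups did not overlap in any of these, where 39.4% of tested genes had no overlap. Gpx7, a peroxidase of the endoplasmic reticulum named after its values were seen, was the other that fell (log2 change -0.65, limma adjusted p = 0.0437).

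In the thioredoxin list 1 of 15 genes rose and none fell, 6.67% beside 14.6% of all tested genes. Txnrd2, the mitochondrial counterpart of Txnrd1, had 322, 312 and 312 normalized counts in FGF13cko and 193, 210.3 and 208 in CTRL (log2 change 0.63, SE 0.15, limma adjusted p = 0.0315), and a part of its reads is uncertain. Among superoxide and peroxide scavengers 1 of 7 rose and none fell, 14.3% beside the same 14.6%. Sod3, the secreted superoxide dismutase, had 122, 156 and 176 in FGF13cko and 29.5, 42.3 and 24.3 in CTRL (log2 change 2.23, SE 0.28, limma adjusted p = 0.00409).

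Of the other genes of NADPH supply 1 of 20 rose and 2 fell, 15% in all beside 14.6% of all tested genes. Aldh1l2, a mitochondrial folate enzyme that yields NADPH, had 1425, 1607 and 1244 normalized counts in FGF13cko and 5311, 4333 and 3961 in CTRL (log2 change -1.67, SE 0.17, limma adjusted p = 0.00214). It shares 1056 exon bases with D10Wsu102e on the opposite strand, at a mean of 2983 normalized counts, so a part of its reads is uncertain. Nadk2, the mitochondrial kinase that makes NADP from NAD, had 916, 999 and 1028 in FGF13cko and 1878, 1859 and 1865 in CTRL (log2 change -0.93, SE 0.12, limma adjusted p = 0.00508). Aldh1l1, the cytosolic relative of Aldh1l2 and a known astrocyte marker, rose, with 7499, 10245 and 7674 in FGF13cko and 5766, 5417 and 4193 in CTRL (log2 change 0.72, SE 0.19, limma adjusted p = 0.0428). In these 3 genes the groups did not overlap, where 39.4% of tested genes had no overlap. The summed astrocyte markers given above overlapped between the groups, and the part of astrocyte RNA in the Aldh1l1 result was not tested.

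Single libraries moved these counts. Over the 6 lists, where all libraries gave 13 calls, the fit gave 6 calls in all without CTRL 1, 8 without CTRL 2 and 31 without CTRL 3. There were 8 without FGF13cko 1, 3 without FGF13cko 2 and 7 without FGF13cko 3, and 46 without both replicate 3 libraries. Sod3, Aldh1l2 and Nadk2 passed under each of the 16 alternatives. Gpx1, Txnrd2 and Aldh1l1 missed the threshold when any 1 library other than CTRL 3 was left out, with a limma adjusted p of up to 0.108, 0.13 and 0.171. They also missed it with no filter on low values (0.0582, 0.0515 and 0.0673), and Gpx1 and Aldh1l1 with no mean-variance trend (0.0601 and 0.0687). Gsta3 missed it under 4 and Gpx7 under 7 alternatives, with an adjusted p of up to 0.102 and 0.173. Abcc1 missed it without CTRL 1, CTRL 2, FGF13cko 2 or FGF13cko 3 (up to 0.0837), Ugdh and Gsto1 without CTRL 1 or FGF13cko 2 (up to 0.0646 and 0.0674), and Blvrb and Chac1 without FGF13cko 2 (0.0587 and 0.0531).

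**Figure D4:**
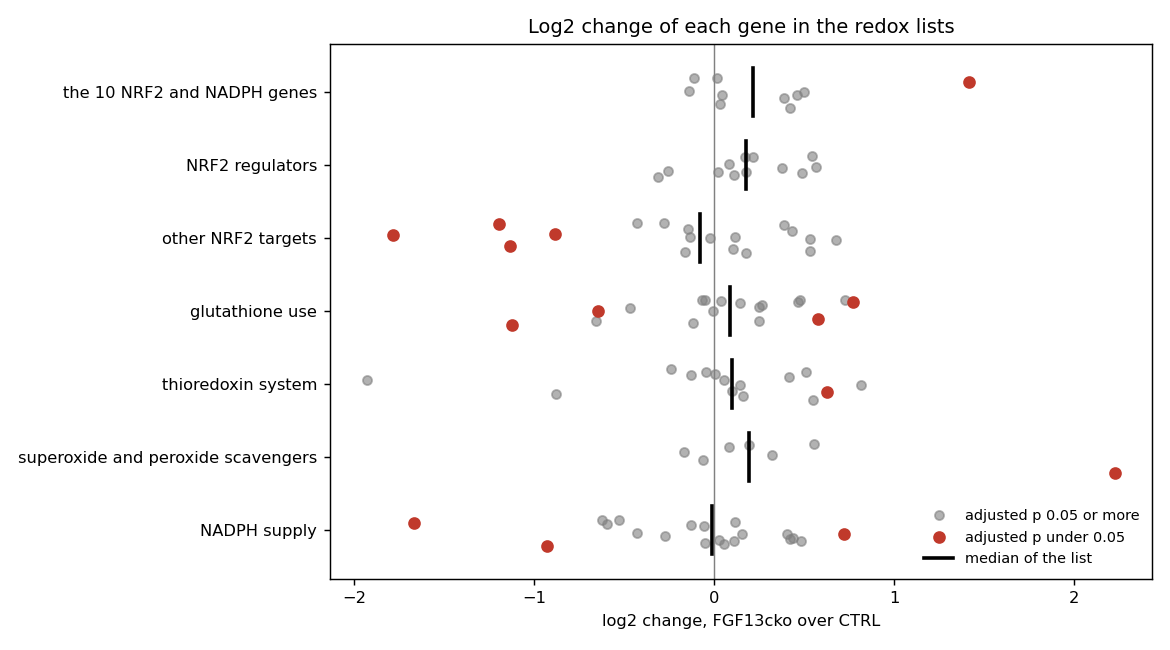
Log2 change, FGF13cko over CTRL, of each tested gene in the set of 10 and in the 6 redox lists, with genes at a limma adjusted p under 0.05 in red and the median of each list as a black bar. The medians lie between -0.08 and 0.22, and the red points stand on both sides of 0.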

How the data were processed

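The deposited table holds 1 normalized value per gene and library, a signal on the scale of counts: per the file headers and its values, the authors divided gene counts by 1 size factor per library. All values above 0 were whole multiples of the library's smallest value (100% within 0.01 of a read), which recovered whole reads. The table also holds the authors' deposited log2 fold change, its standard error and Wald statistic (each a score, not used in tests) and p-values. The names STAR, DESeq2 and mm10 come from the submitters' processing notes, without versions. Which tool counted reads, and on which annotation, is not given in the sources used here. Coordinates, 1-based, and exon lengths are from GENCODE M21 (GRCm38), which holds 54409 of the gene IDs.

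The main test was limma 3.58.1 (R 4.3.3) on log2(value + 1), genes with a mean of at least 10, genotype as the only term, a mean-variance trend, and Benjamini-Hochberg adjustment at 0.05. Fold changes on this scale understate those of low genes. Alternatives were edgeR 4.0.16 and DESeq2 1.42.0 on recovered reads, TMM scaling, other pseudocounts and filters, no trend, the replicate block, and leaving out libraries. The fits were tested on simulated data. Deviations from the group means correlated between libraries sharing a number (0.36 in replicate 1, 0.20 in replicate 2, 0.54 in replicate 3), and the pairing rests on this. No label says what a number marks, and FGF13cko 2 correlated more with CTRL 1 (0.26) than with CTRL 2. FGF13cko 1 correlated with CTRL 2 (0.33) nearly as much as with CTRL 1. The correlations thus set replicate 3 apart from the others but do not show that numbers 1 and 2 are pairs.

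The 10 genes, the lists and the tests were chosen with earlier results of these data known. Named genes are the 10, Fgf13, and from each list up to 3 genes past the threshold with the smallest adjusted p, or else the most abundant; others are said to be named after their values were seen. Reads are not independent molecules, and no 2 libraries of a group agreed within sampling noise (chi-square per gene of at least 7.51).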

Additional observations from a re-analysis of the deposited data

How the results depend on the processing

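Over all genes, 2465 passed with genotype alone, 5064 with the replicate block, 3971 by DESeq2, 6145 without both replicate 3 libraries, and 469 to 4373 with 1 library left out. Of the 10 genes, 1 passed in the main fit, 4 with the replicate block, 2 by DESeq2, 5 without both replicate 3 libraries, and 1 or 2 with 1 library left out. Of the list genes, 13 passed, and 33, 26, 46 and 3 to 31 in the same order. Fgf13 kept its direction, at -0.87 by DESeq2 (adjusted p = 0.0499), -1.35 without both replicate 3 libraries, and -1.15 to -0.53 with 1 library left out; with the replicate block it was -0.81 (limma adjusted p = 0.0635).

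Among genes near 0, G6pdx turned to -0.0059 by DESeq2, -0.0187 by edgeR and -0.22 without both replicate 3 libraries (-0.21 to 0.21 with 1 library left out), Gclc to -0.0326, -0.0456 and -0.22 (-0.23 to 0.19), and Nqo1 to -0.0898 without both replicate 3 libraries (-0.15 to 0.17). Me1 ranged from -0.42 to 0.0001 with 1 library left out. The cause was not tested. The replicate block changed the call of Nfe2l2, Gclm and Txnrd1 among the 10 genes and of no other. Leaving out 1 library leaves 2 in a group. The 10 genes had 141 to 8009 reads per library, and the part of counting noise in their spread was not tested.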

Other observations

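Some redox genes outside the rule for named genes were looked at after their values were seen. Prdx1, a peroxiredoxin that sulfiredoxin repairs, had 7341, 5986 and 9395 normalized counts in FGF13cko and 4701, 5195 and 7135 in CTRL, and CTRL 3 lay inside the FGF13cko range (log2 change 0.41, limma adjusted p = 0.245). Within replicate numbers 1, 2 and 3 its log2 ratio was 0.64, 0.20 and 0.40. It passed with the replicate block (limma adjusted p = 0.0463), in a fit that called 30.0% of all tested genes. The log2 changes of Prdx2, Prdx3, Prdx5 and Prdx6 were 0.01, 0.10, 0.05 and -0.13. Prdx4 went the other way from Prdx1, at -0.88 without overlap between the groups (limma adjusted p = 0.0913). In the authors' deposited table the adjusted p was 0.021 for Prdx4 and 0.266 for Prdx1. Neither Prdx1 nor any of these other peroxiredoxin genes passed by limma with genotype alone. The NRF2 targets Hmox1, Fth1 and Cbr3, encoding heme oxygenase, the ferritin heavy chain and a carbonyl reductase, had log2 changes of 0.53, 0.68 and 0.53. In each the FGF13cko libraries were all above the CTRL libraries, and 39.4% of tested genes had no overlap between the groups. None of the 3 passed by limma with genotype alone (adjusted p = 0.0782, 0.0739 and 0.0714) or by edgeR (0.0702, 0.0831 and 0.0641). All 3 passed by DESeq2 (0.0325, 0.025 and 0.0262), which called 23.6% of all genes. They also passed by limma with the replicate block (0.0253, 0.00802 and 0.0336), which called 30.0%. In the list from which they were picked, 8 of 18 log2 changes were above 0. By limma with genotype alone, 4 genes of that list fell and none rose. In the authors' deposited table the adjusted p of Hmox1, Fth1 and Cbr3 was 0.071, 0.0225 and 0.0487.

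Nnt, the mitochondrial transhydrogenase that makes NADPH, had 32.5, 35.7 and 27.1 normalized counts in FGF13cko and 19.3, 29.2 and 43.5 in CTRL. A second gene ID of the same symbol, which shares 3339 exon bases with it, was at 0 in all 6 libraries.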
